A study of Mus musculus with 6 samples.

Results

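Epithelial-mesenchymal transition (EMT) is driven by a small set of transcription factors and opposed by others, and 10 of these genes were followed here in tumour cells sorted into metastasis-initiating cells (MICs) and the remaining tumour cells (non-MICs). They were chosen by name: 8 inducers (Snai1, Snai2, Snai3, Zeb1, Zeb2, Twist1, Twist2 and Prrx1) and 2 keepers of the epithelial state (Grhl2 and Ovol1). All 10 were among the 22310 genes of the deposited table. The cells came from tumours of MMTV-PyMT mice on the FVB/N background, labelled WT for genotype, and the study took tumours at about 12 to 18 weeks of age. In these mice the MMTV promoter drives the polyoma middle T oncogene in mammary epithelium. Tumours were digested, plated overnight in a medium with serum, insulin and EGF, depleted of cells with blood, endothelial or erythroid surface markers (Lin-), gated as CD24+ and divided by the surface protein CD90, which MICs carried (CD90+) and non-MICs did not (CD90-). No further treatment separated the populations, and 3 libraries of each, numbered 1 to 3 in both, were sequenced.

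The Snail (Snai), Zeb and Twist proteins and the homeodomain protein Prrx1 can each push an epithelial cell toward a mesenchymal state. Snail and Zeb proteins are zinc-finger repressors that bind E-box sequences in the promoters of junction genes such as E-cadherin (Cdh1), while Twist proteins are basic helix-loop-helix factors that act with E proteins. Grhl2 and Ovol1 hold epithelial genes on and restrain Zeb1, and Zeb1 in turn represses Grhl2. In the normal mammary gland Snai2 is known as a factor of the basal, myoepithelial layer.

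The deposited values are read counts that the authors scaled to the same total in each library, and the reads behind them could be recovered, 31467281 to 51759769 per library. The CD90 gene Thy1, which the sort used, was at 301 to 1509 in MICs and at 12.6 to 21.1 in non-MICs, and Cd24a was at 11309 to 19406 in all libraries. Same-numbered libraries deviated together from their group means, so each difference is given within the 3 pairs as well as between the groups. The libraries are bulk RNA of sorted cells, in which fewer cells of a type and less RNA per cell cannot be told apart.

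Snai2 and Prrx1 were higher in MICs in every pair, and Grhl2 and Ovol1 were lower in every pair. The other inducers showed no common direction or differed by little. A shared sign alone is common, since 12.5% of all genes rose and 18.8% fell in each of the 3 pairs. Snai2 was 4.18-, 1.49- and 2.42-fold higher in MICs in pairs 1, 2 and 3, and Prrx1 2.78-, 1.98- and 1.68-fold, all on the scale of value + 1. Grhl2 stood at 0.525, 0.666 and 0.924 of the non-MIC value and Ovol1 at 0.446, 0.596 and 0.849. In limma without a block on log2(value + 1), 0 of the 10 members passed an adjusted p of 0.05, where 0.0% of all genes did, and none had an unadjusted p under 0.05. Over all genes that fit had 322 genes at an unadjusted p under 0.05. edgeR on the recovered reads called 0 genes without a block (295 at an unadjusted p under 0.05), and DESeq2 called 1, which was no member.

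With the replicate number as a block, which compares each MIC library with the non-MIC library of its own number, the tools parted. limma with the block again called 0 members in either direction, against 0.121% of genes called higher and 0.00896% called lower. At an unadjusted p under 0.05 it had 4 of the 10, Snai2, Prrx1, Grhl2 and Ovol1, against 11.2% of genes. edgeR with the block called Snai2 and Prrx1 higher, where 1.04% of genes were called higher, and none of the 10 lower, where 0.372% were. DESeq2 with the block called 2 higher, again Snai2 and Prrx1, and 0 lower, against 0.493% and 0.103% of genes. Without pair 1 neither gene kept its call in edgeR with the block (adjusted p = 0.62 for Snai2 and 1.00 for Prrx1). No member separated the 3 MIC from the 3 non-MIC libraries without overlap, as 6.24% of genes did. An exact two-sided permutation test of 3 against 3 values gave p-values between 0.2 and 1.0 for the members, and it cannot go below 0.1.

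**Figure D1:**
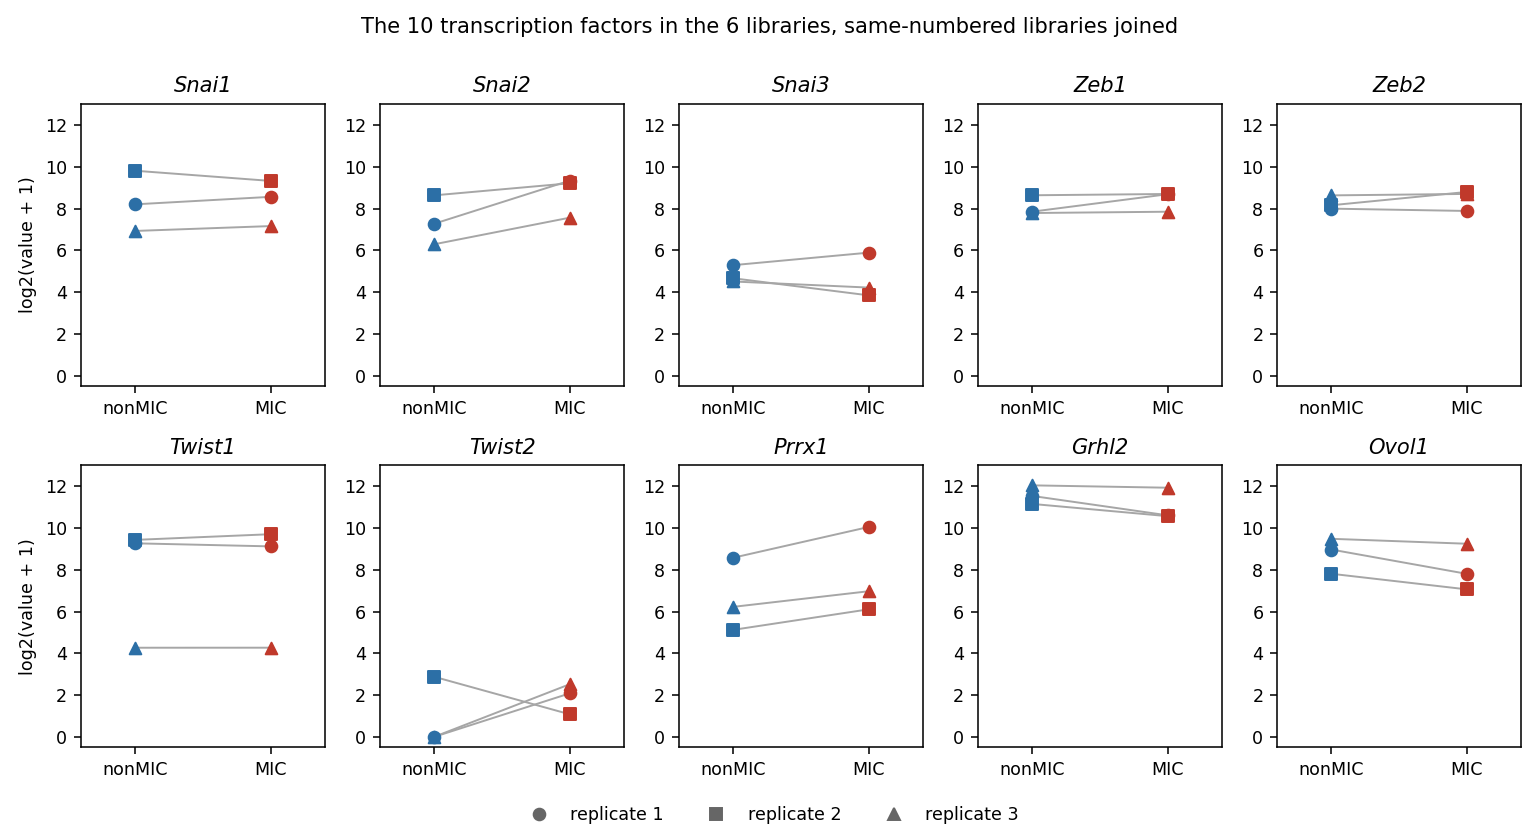
Each panel shows 1 of the 10 transcription factors as log2(value + 1) on the y axis in non-MICs (blue) and MICs (red), with same-numbered libraries joined by a line and replicates marked by shape. The lines of Snai2 and Prrx1 go up and those of Grhl2 and Ovol1 go down in all 3 pairs, while Twist1 lies far lower in both libraries of replicate 3.

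Among the Snail genes, Snai2 (Slug) carried the difference. Its value was 645, 591 and 188 in MICs 1, 2 and 3 and 153, 395 and 77.1 in the non-MICs of the same numbers. The groups overlapped, because MIC 3 lay below non-MIC 2, yet each MIC library was above its own partner. On the log2 scale the difference was 1.31 (SE 0.70 without the block, adjusted p = 1.00 in limma, n = 3 per group). With the block the SE was 0.27, with a 95% interval of 0.71 to 1.90 and an adjusted p of 0.139 in limma, while edgeR gave 1.4e-05 and DESeq2 0.00255. Snai2 lies on chromosome 16 (GRCm38, positions 14705852 to 14709385, plus strand).

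Snai1 (Snail), the family member first linked to repression of E-cadherin, was at 376, 638 and 142 in MICs and at 293, 896 and 121 in non-MICs. It was higher in MICs in pairs 1 and 3 (log2 differences 0.36 and 0.23) and lower in pair 2 (-0.49), so the mean of 0.03 had no common direction, with a 95% interval of -0.46 to 0.53 in limma with the block. Snai3, the third member of the family, was low throughout, at 58.2, 13.3 and 17.6 in MICs and at 38.1, 24.3 and 21.7 in non-MICs. These Snai3 values rest on 12 to 54 reads in a library, and its pair differences of 0.60, -0.82 and -0.29 again had mixed signs.

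Of the 5 members with a promoter sequence at hand 1, Snai1, held the E-box that Snail and Zeb proteins bind. This share of 20.0% was near the 22.6% of all genes with a window, and neither Snai2 nor a keeper had a window. Promoter windows, 250 bases before to 50 after a transcript's start, were taken from RefSeq (GRCm38.p6) and searched for CAGGTG and its reverse complement CACCTG, which reads both strands. Of the 10 members 5 had a window (Snai1, Zeb2, Twist1, Twist2 and Prrx1), with 8 windows in all, and 1 of these 5 genes held a match, against 22.6% of the 27025 genes with a window and 20.2% of the 32851 windows. The window of Snai1 is shown for that match, and the one of Prrx1, the member called higher with the block whose window was in the table, for comparison. Capitals mark the E-box, whose first base is at -126 from the transcript start of Snai1 (chr2:167537945-167538244, plus strand). No E-box is present in the Prrx1 window (chr1:163313601-163313900, minus strand), which says only that these letters are absent from it.
Snai1: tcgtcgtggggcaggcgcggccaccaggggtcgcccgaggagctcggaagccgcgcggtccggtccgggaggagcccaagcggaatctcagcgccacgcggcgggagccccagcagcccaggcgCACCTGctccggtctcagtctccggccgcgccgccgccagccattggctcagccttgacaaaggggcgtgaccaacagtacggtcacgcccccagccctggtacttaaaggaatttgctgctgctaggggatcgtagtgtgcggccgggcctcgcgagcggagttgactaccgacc
Prrx1: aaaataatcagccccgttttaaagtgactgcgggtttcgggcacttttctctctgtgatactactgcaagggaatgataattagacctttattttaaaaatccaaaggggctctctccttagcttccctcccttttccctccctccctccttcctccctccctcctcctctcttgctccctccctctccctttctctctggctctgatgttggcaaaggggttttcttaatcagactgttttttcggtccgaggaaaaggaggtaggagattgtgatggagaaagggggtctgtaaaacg

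The share of Snai2 in the reads of its family did not overlap between the populations. Snai2 supplied 59.7%, 47.5% and 54.1% of the family's reads in MICs 1, 2 and 3 (exact binomial 95% intervals 56.6% to 62.8%, 44.6% to 50.5% and 49.7% to 58.5%). In non-MICs its share was 31.7%, 30.0% and 35.1% (27.4% to 36.1%, 27.5% to 32.7% and 29.9% to 40.7%). The lowest MIC share was thus above the highest non-MIC share, and the intervals, which cover counting error only, did not meet between the groups. This share is not an independent result, since Snai2 itself was the gene that differed, and no test was run on it. The merged exons of Snai1 and Snai2 span 1621 and 2021 bases.

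**Figure D2:**
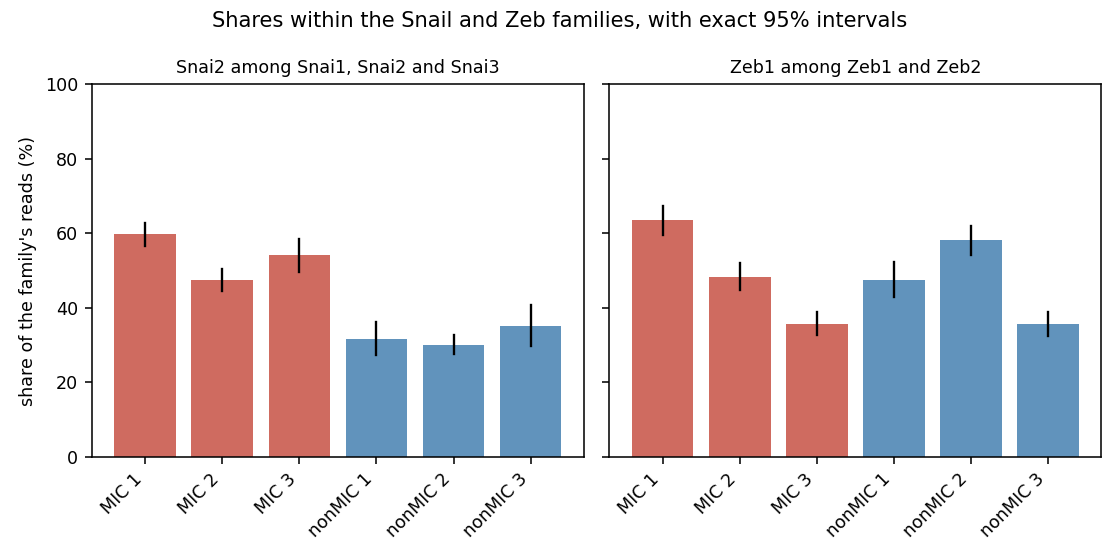
Bars show the share of a family's recovered reads in percent, Snai2 among the 3 Snail genes at left and Zeb1 among the 2 Zeb genes at right, with exact binomial 95% intervals as lines, MICs in red and non-MICs in blue. Snai2 stands at 47.5% to 59.7% in MICs and 30.0% to 35.1% in non-MICs, while the Zeb1 shares of both populations overlap.

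The Zeb genes showed little difference. Zeb1, the zinc-finger homeobox repressor that forms a mutual repression loop with the miR-200 family, was at 411, 414 and 229 in MICs and at 230, 396 and 220 in non-MICs. It was higher in MICs in all 3 pairs, but only pair 1 (0.84 on the log2 scale) stood away from 0, with 0.06 in both other pairs. The mean was 0.32 with a 95% interval of -0.18 to 0.82 in limma with the block (adjusted p = 0.608). Zeb2 (Sip1) was at 235, 443 and 415 in MICs and at 254, 284 and 395 in non-MICs. Its difference was -0.11, 0.64 and 0.07 in pairs 1, 2 and 3, so that pair 2 set the mean of 0.20 (95% interval -0.28 to 0.68). The share of Zeb1 in the Zeb reads was 35.6% to 63.6% in MICs and 35.7% to 58.2% in non-MICs, which overlap.

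Twist1 separated the replicates far more than the populations. It was measured in MICs at 554, 831 and 18.3 and in non-MICs at 614, 688 and 18.2. Both libraries of replicate 3 held 26 or 27 reads where the other 4 held 514 to 747. Within pairs the log2 differences were -0.15, 0.27 and 0.00, and limma with the block gave 0.04 with a 95% interval of -0.46 to 0.55. Twist2 was at 3, 1 and 7 reads in MICs 1, 2 and 3 and at 0, 6 and 0 reads in non-MICs. At these counts a library at 0 reads allows up to 3, and no fold of Twist2 is given. Twist2 is one of the fibroblast markers used below.

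Prrx1, a homeobox factor of mesenchyme whose loss has been tied to colonisation in other models, was the second member called higher in MICs with the block. It was measured at 1057, 67.8 and 124 in MICs and at 380.0, 33.8 and 73.6 in non-MICs. Replicate 1 was far above the others in both populations, and non-MIC 1 exceeded MICs 2 and 3. Within pairs the log2 differences were 1.47, 0.98 and 0.75. The mean of 1.07 had an SE of 1.19 without the block and 0.27 with it (95% interval 0.49 to 1.64), with an adjusted p of 0.259 in limma, 0.00197 in edgeR and 0.00619 in DESeq2, all with the block. Leaving MIC 1 out of the fit without a block turned the difference to -0.10, with the high non-MIC 1 still in it. Prrx1 lies on chromosome 1 (163245119 to 163313710, minus strand).

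The epithelial keepers went the other way. Grhl2, the grainyhead-like activator of junction genes, was at 1553, 1512 and 3888 in MICs and at 2960.3, 2271 and 4206 in non-MICs. Each MIC library was below its partner, with log2 differences of -0.93, -0.59 and -0.11, but MIC 3 was above non-MICs 1 and 2. The mean of -0.54 had an SE of 0.18 with the block (95% interval -0.94 to -0.15) and did not pass after adjustment (0.417 in limma, 0.167 in edgeR and 0.286 in DESeq2). Ovol1, a zinc-finger repressor of Zeb1, was at 222, 132 and 605 in MICs and at 499.6, 223 and 713 in non-MICs. Its pair differences were -1.17, -0.75 and -0.24, with a mean of -0.72 (95% interval -1.21 to -0.22) and adjusted p-values of 0.417, 0.0836 and 0.237 in the same tools. Without pair 3, edgeR with the block called Grhl2 lower (-0.75, adjusted p = 0.0417) but not Ovol1 (0.0705). Of the 10 members 3 were higher in MICs in all 3 pairs (Snai2, Zeb1 and Prrx1), as 12.5% of genes were, and 2 were lower in all 3 (Grhl2 and Ovol1), as 18.8% of genes were.

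**Figure D3:**
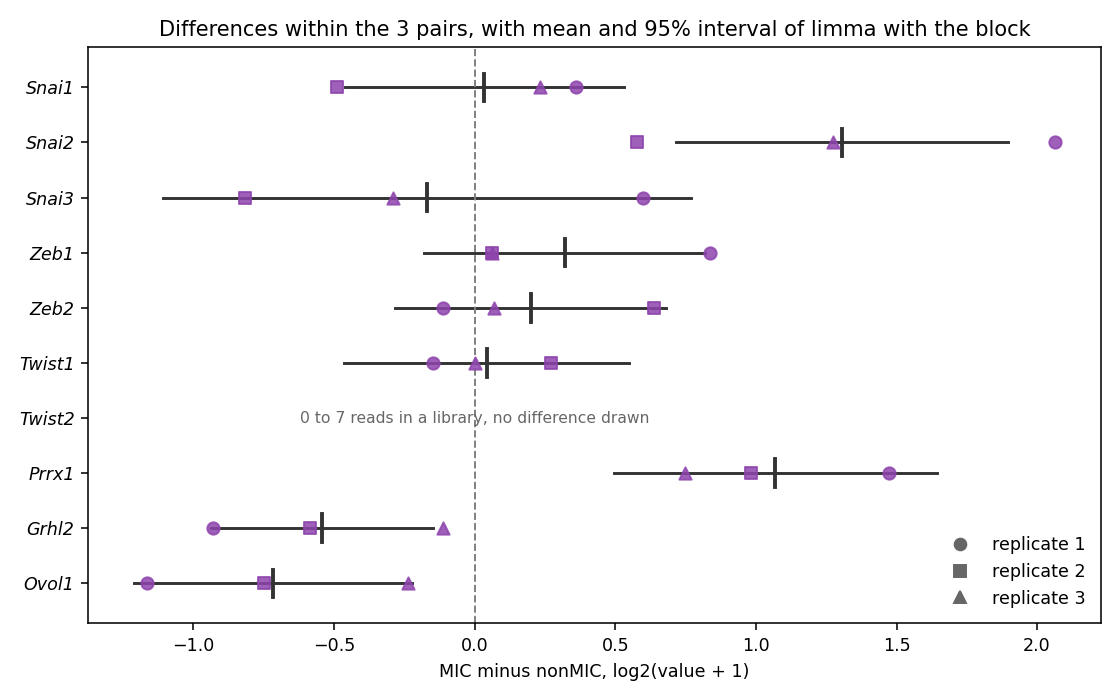
Points are MIC minus non-MIC differences in log2(value + 1) within pairs 1, 2 and 3 on the x axis, 1 row per gene, with the mean as a bar and the 95% interval of limma with the block as a line. The intervals of Snai2 (0.71 to 1.90) and Prrx1 (0.49 to 1.64) lie above 0, and those of Grhl2 and Ovol1 below 0, before adjustment over all genes.

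Pair 1 carried the largest differences for Snai2, Zeb1, Prrx1, Grhl2 and Ovol1, and pair 3 the smallest for Prrx1, Grhl2 and Ovol1. Over the 11173 genes with a mean value of at least 100, the median absolute difference was 0.36, 0.33 and 0.11 in pairs 1, 2 and 3, so that pair 3 differed less across the table as well. Differences between replicates were larger than those between populations for most members. The means of the 3 pairs spanned 5.30 on the log2 scale for Twist1, 3.70 for Prrx1, 2.52 for Snai1, 1.99 for Snai2, 1.93 for Ovol1 and 1.13 for Grhl2. They spanned less for Zeb1 (0.85) and Zeb2 (0.73).

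The ratio of keeper to inducer was lower in MICs in every pair, for both keepers and for Snai2 and Zeb1. The log2 ratio of Grhl2 to Snai2 was 1.27, 1.35 and 4.36 in MICs, against 4.26, 2.52 and 5.75 in non-MICs, with MIC minus non-MIC differences of -2.99, -1.17 and -1.39. For Ovol1 to Snai2 the differences were -3.23, -1.33 and -1.51, for Grhl2 to Zeb1 -1.77, -0.65 and -0.18, and for Ovol1 to Zeb1 -2.002, -0.81 and -0.30. These ratios are built from the member values above and add no independent evidence. The spread between replicates was again as wide as the difference, and replicate 3 had the highest of each ratio in both populations.

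Levels between the genes were compared per kilobase of merged exon. The medians over the 6 libraries ran from Twist1 (359 per kb), Grhl2 (304), Snai1 (207), Snai2 (144) and Ovol1 (104) to Zeb1 (30.5), Zeb2 (17.0), Snai3 (14.1), Prrx1 (8.95) and Twist2 (0.685). Neighbours in this order overlapped in their libraries, narrowly so for Ovol1 (37.9 to 204) and Zeb1 (21.4 to 40.3) and for Zeb1 and Zeb2 (11.8 to 22.2), with the exception of Prrx1 (3.06 to 95.5) and Twist2 (0 to 2.00). Twist1 headed the order in spite of its 11.2 per kb in both libraries of replicate 3. With the length of the principal transcript in place of the merged exons, Grhl2 came first (529 per kb) and Twist1 second, and Prrx1 (20.0) passed Snai3. Grhl2 was at 269 per kb on average in MICs and 365 in non-MICs, and Ovol1 at 91.7 and 137.

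**Figure D4:**
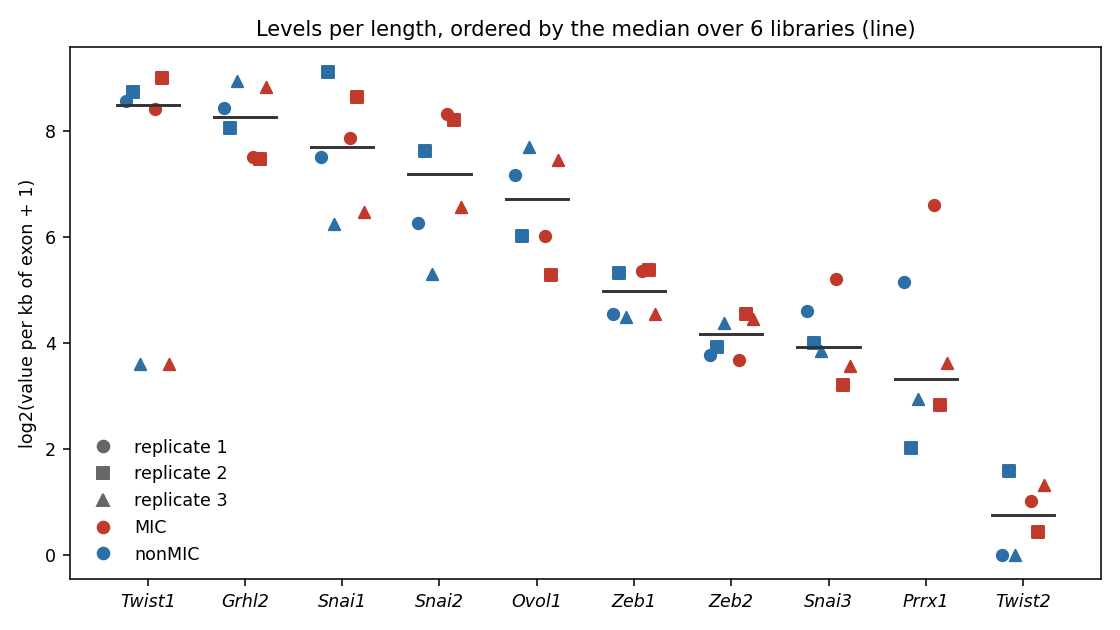
The y axis is log2(value per kb of merged exon + 1) in each library, non-MICs in blue and MICs in red, for the 10 genes ordered along the x axis by their median (line). Twist1 and Grhl2 have the highest medians (359 and 304 per kb), and Twist2 the lowest (0.685).

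The remaining members lie on chromosomes 2 (Snai1, 167538195 to 167542814, plus strand; Zeb2, 44983632 to 45117395, minus strand), 8 (Snai3, 122454208 to 122460733, minus strand), 12 (Twist1, 33957671 to 33959829, plus strand), 1 (Twist2, 91801461 to 91848028, plus strand), 15 (Grhl2, 37233036 to 37363569, plus strand), 19 (Ovol1, 5549136 to 5560646, minus strand) and 18 (Zeb1, 5591860 to 5775467, plus strand) of GRCm38, all as protein-coding genes in GENCODE vM21. Antisense or opposite-strand genes share exon sequence with 4 of them in the table. Gm16136 at Grhl2 reached 175, Gm29100 at Twist2 reached 11.6, Gm31166 at Ovol1 reached 10.8, and Zeb2os at Zeb2 reached 3.34. The libraries were stranded, but the strand setting of the counting is not given in the sources used here, so reads of these pairs may not be fully separated, and Gm29100 reached a higher value than Twist2 (6.34).

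Other EMT transcription factors had a positive fold change in 6 of 20 cases, where 45.8% of all genes had one (median -0.28, against -0.04 over all genes). In all 3 pairs 2 were higher and 8 lower, beside 12.5% and 18.8% of genes. In edgeR with the block 1 was called higher and 0 lower, beside 1.04% and 0.372% of genes, and in limma with the block none. The called gene was Klf8, a Krüppel-like repressor of E-cadherin, with pair differences of 1.08, 1.10 and 0.15 (adjusted p = 0.0364), and 0 of the list were called without pair 1 or without pair 2, and 2 without pair 3. Fosl1, an AP-1 subunit, had -0.81, -0.80 and -0.35, and Sox9, a factor of mammary progenitors, -0.996, -0.40 and -0.10, and neither passed. The SOX factor Sox4 and the ETS factor Ets1, with high values, had mean differences of -0.27 and -0.06. Hmga2, a chromatin architectural factor, was at 17132 and 16649 in MIC 2 and non-MIC 2 and between 519 and 1617 in the other libraries, so that, as for Twist1, both libraries of a pair shared the extreme level.

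The other epithelial keepers lay on the same side as Grhl2 and Ovol1. Of 16 genes 1 had a positive fold change, beside 45.8% of all genes, and the median was -0.39, beside -0.04. In all 3 pairs 10 were lower, beside 18.8% of genes, and 1 was called lower by edgeR with the block, beside 0.372%. That gene was Elf5, an ETS factor of the luminal alveolar lineage known to repress Snai2, with pair differences of -1.31, -0.93 and -1.04 (adjusted p = 0.000449 in edgeR and 0.139 in limma, both with the block), and 0 were called in edgeR without pair 1. It was at 434.6, 14.5 and 542 in MICs and at 1079, 28.5 and 1112 in non-MICs. Esrp2, a splicing regulator that maintains epithelial isoforms, had -1.01, -0.65 and -0.18, and Ehf, an epithelial ETS factor, -1.46, -0.10 and -0.42, without passing. Esrp1, a paralogue of Esrp2, had a mean difference of -0.34, the Krüppel-like factor Klf4 of -0.47 and the GATA-type factor Trps1 of -0.23.

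In 3 lists of genes that act on the members or their proteins, none passed. Among 18 partners and corepressors, 14 regulators of Snail and Zeb protein stability and 20 upstream signalling genes, 0 were called by limma, edgeR or DESeq2 with the block, and limma with the block had 2, 1 and 4 of them at an unadjusted p under 0.05. Their median fold changes were -0.14, -0.15 and -0.09, beside -0.04 over all genes. The E protein Tcf3 had -0.67, -0.56 and -0.14 in pairs 1, 2 and 3, the helix-loop-helix inhibitor Id4 had 1.43, 0.14 and 0.35, and the TGF-beta receptor Tgfbr2 had -1.02, -0.27 and -0.06. The other partners named by size or level had mean log2 differences of -0.16 (Tcf12, an E protein), -0.20 (the demethylase Kdm1a) and -0.36 (the LIM protein Ajuba). Among the stability regulators these were -0.43 for Fbxl14, -0.39 for Fbxo45, -0.35 for the kinase Csnk1e, -0.26 for the kinase Pak1 and 0.24 for Cops2. Among the signalling genes they were -0.48 for the NF-kappaB subunit Rela, -0.44 for Notch1, -0.12 for beta-catenin (Ctnnb1) and 0.28 for the EGF receptor (Egfr).

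The mesenchymal genes that EMT factors raise had higher values in MICs. All 24 had a positive fold change, beside 45.8% of all genes (median 0.93, beside -0.04). In all 3 pairs 13 were higher, beside 12.5% of genes. With the block 14 were called higher by edgeR, 8 by DESeq2 and 5 by limma, beside 1.04%, 0.493% and 0.121% of genes. Without pair 1 edgeR called 6, and without pair 3 limma called 0. The 5 were Acta2 (smooth muscle actin, 2.42 on the log2 scale), Tagln (transgelin, 2.67), Postn (periostin, 2.50), Lox (lysyl oxidase, 1.59) and Col5a2 (a collagen chain, 1.33). Acta2 was at 230570, 3765 and 9839 in MICs and at 48582, 724 and 1581 in non-MICs. Fn1 (fibronectin), with the highest values of the list, differed by 0.31, 0.02 and 0.34 and was not called. Among the genes edgeR called, Sparc, Itga5 and Fbn1 were lower in MICs in pair 2, at -0.27, -0.12 and -0.08. DESeq2 with the block did not call these genes (adjusted p = 0.605, 0.492 and 0.410). Of these 24 genes, Acta2 and Tagln are also basal markers, and Col1a1, Col1a2 and Col3a1 are also fibroblast markers.

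The epithelial genes that Snail and Zeb proteins repress had a positive fold change in 4 of 24 cases, beside 45.8% of all genes (median -0.20, beside -0.04). In all 3 pairs 8 were lower, beside 18.8% of genes. By edgeR with the block 1, Tjp3 (the tight junction protein ZO-3), was called lower, beside 0.372% of genes (pair differences -1.48, -1.14 and -0.44, adjusted p = 0.0243), against 0 without pair 1. Tjp3 was at 223, 20.0 and 145 in MICs and at 623, 45.4 and 196 in non-MICs. Cdh1 was at 31171, 17786 and 41079 in MICs and at 43616, 21351 and 37941 in non-MICs, with differences of -0.48, -0.26 and 0.11, and was not called. The keratins Krt8 and Krt18 did not pass either, at -0.17 and -0.18 on average, nor did the junction gene Cgn at -0.54 or the laminin chain Lama3 at 0.50.

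Promoter windows were available for 16 of these 24 epithelial genes, and 13 of the 16 (81.2%) held CAGGTG or CACCTG in at least 1 window, beside 22.6% of all genes. Among 13 mesenchymal targets with a window 1 (7.69%) held one. The epithelial list was chosen as genes that Snail and Zeb proteins repress, so a high share of their motif follows largely from that choice. No test was run on these shares, and they say nothing on MICs against non-MICs. The grainyhead letters AACCNGTT (or AACNGGTT on the other strand) were in 2 of the 16, Cgn and Rab25, beside 2.35% of all genes. The windows below are those of Crb3, a polarity gene with 4 E-boxes, Rab25, an epithelial trafficking GTPase with both motifs, and Tjp3, the gene called lower, and Crb3 and Rab25 were chosen for their matches. Capitals mark the matches, and the 8-base capital run in Rab25 is the grainyhead match. They lie at chr17:57061951-57062250 (plus strand), chr3:88548230-88548529 (minus strand) and chr10:81291532-81291831 (minus strand).
Crb3: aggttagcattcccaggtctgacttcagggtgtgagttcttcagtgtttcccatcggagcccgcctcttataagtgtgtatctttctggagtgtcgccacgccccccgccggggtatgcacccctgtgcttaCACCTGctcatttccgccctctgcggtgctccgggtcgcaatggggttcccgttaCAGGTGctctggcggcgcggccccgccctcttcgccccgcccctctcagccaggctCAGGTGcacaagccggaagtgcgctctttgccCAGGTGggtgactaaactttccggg
Rab25: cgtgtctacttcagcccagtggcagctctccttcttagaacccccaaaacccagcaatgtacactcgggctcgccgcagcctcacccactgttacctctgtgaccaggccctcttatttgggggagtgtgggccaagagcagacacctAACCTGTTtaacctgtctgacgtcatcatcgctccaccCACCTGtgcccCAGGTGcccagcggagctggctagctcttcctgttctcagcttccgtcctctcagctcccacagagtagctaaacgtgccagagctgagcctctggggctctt
Tjp3: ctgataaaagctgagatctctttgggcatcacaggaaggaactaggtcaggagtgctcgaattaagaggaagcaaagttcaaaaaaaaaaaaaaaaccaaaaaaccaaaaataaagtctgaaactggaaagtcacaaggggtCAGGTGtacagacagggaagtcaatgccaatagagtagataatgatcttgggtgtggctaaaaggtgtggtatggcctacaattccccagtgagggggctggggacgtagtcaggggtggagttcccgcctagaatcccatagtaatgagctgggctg
Of the 13 genes with an E-box match 1, Tjp3, was called in edgeR with the block. Crb3 had pair differences of -0.36, -0.06 and -0.10 and Rab25 of -0.37, -0.30 and -0.11, and neither passed in edgeR with the block (adjusted p = 0.863 and 0.684).

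**Figure D5:**
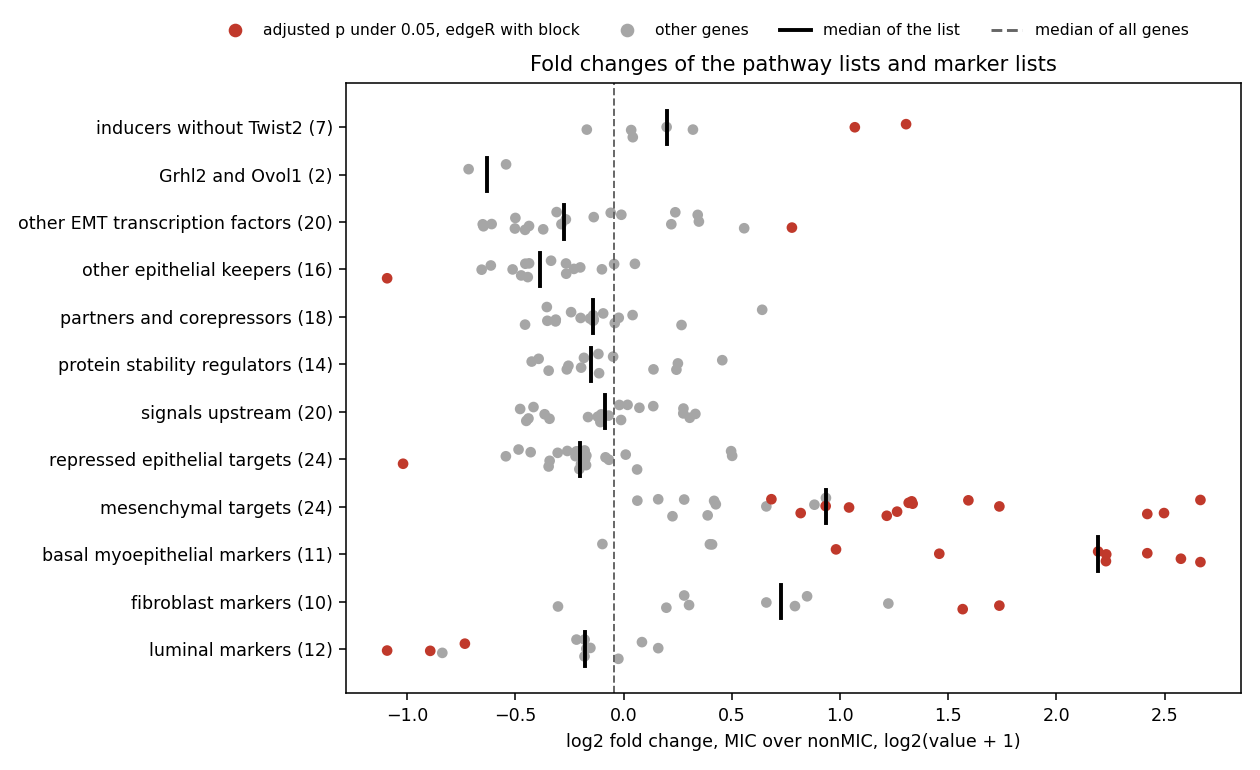
Each point is a gene of a list at its log2 fold change of MIC over non-MIC on the x axis, with the median of the list as a black bar, the median of all genes as a dashed line, and genes passing edgeR with the block in red. Twist2, at 0 to 7 reads, is left out, and the median of the other inducers is 0.20. Mesenchymal targets and, except for Krt14, basal myoepithelial markers lie to the right of 0, while the medians of the epithelial lists lie to its left.

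Markers of other cell types differed in the same comparison. Of 11 basal myoepithelial markers 8 were called higher in MICs by edgeR with the block, beside 1.04% of genes, and 7 by limma with the block, beside 0.121% (median log2 fold change 2.19), and all 11 were detected. Without pair 3 limma with the block called 0 of them and edgeR 8. Krt5 was at 12705, 403 and 2554 in MICs and at 1161, 97.2 and 1110 in non-MICs, and Myh11 (smooth muscle myosin) at 19908, 310.3 and 377 against 3792, 64.4 and 43.5. The contractile genes Cnn1, Mylk and Actg2 had mean differences of 2.23, 1.46 and 2.19, and the keratin Krt17 of 0.41. In all 3 pairs 8 of the 11 markers were higher, beside 12.5% of genes. Krt14, Krt17 and Oxtr had mixed signs and were not called with the block. Krt14 had pair differences of 0.50, -0.90 and 0.11, Krt17 of 0.75, -0.12 and 0.60, and Oxtr of 0.69, -0.67 and 1.18. Krt14 and Oxtr were named after their values were seen. The summed basal markers came to 576410, 27351 and 79519 in MICs, against 165740, 24669 and 48384 in non-MICs. The MIC sum was 3.48, 1.11 and 1.64 times the non-MIC sum in pairs 1, 2 and 3. The part of these markers in the Snai2 and Prrx1 differences was not tested.

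Fibroblast markers summed to 829 to 2302 in MICs and 596 to 1072 in non-MICs. Their MIC sum was 2.15, 0.93 and 3.32 times the non-MIC sum in pairs 1, 2 and 3. The median log2 fold change was 0.79, and 5 of 11 were higher in all 3 pairs, beside 12.5% of genes. By edgeR with the block 2 of 11 fibroblast markers were called higher (Col1a2 and the proteoglycan gene Dcn), beside 1.04% of genes, and none by limma with the block. Without pair 1, 2 or 3 edgeR called 1, 4 and 1 of them, and 1 of the summed markers was under 10 in all libraries. The collagen genes Col1a1 and Col3a1 and the oxidase Loxl1 had 0.28, 0.66 and 0.79 without passing. In pairs 1, 2 and 3 Col1a1 differed by -0.19, -0.62 and 1.65 and Col3a1 by -0.36, -0.33 and 2.67. Loxl1 differed by 1.37, 0.10 and 0.91. Pericyte markers summed to 404 to 616 and 356 to 986, with 3 of 7 under 10 in all libraries. By edgeR with the block 1 of 7, Cspg4, was called higher, beside 1.04% of genes. Neither limma nor DESeq2 with the block called it (adjusted p = 0.228 and 0.0564). Cspg4 was low, at 47.4, 13.3 and 68.3 in MICs and at 13.8, 4.23 and 9.12 in non-MICs. Pdgfrb and Notch3 had mean differences of 0.63 and -0.68. Luminal markers summed to 225040 to 573490 and 285710 to 673980. Their median log2 fold change was -0.18. In all 3 pairs 1 of 12 was higher and 5 were lower, beside 12.5% and 18.8% of genes. With the block edgeR called 3 of 12 lower (Elf5, the milk-protein gene Wfdc18 and Kit), beside 0.372% of genes, and 0, 4 and 1 without pairs 1, 2 and 3. Elf5 is the keeper already called above, and Epcam, Krt8, Krt18 and Krt19 are also repressed epithelial targets, so these lists are not independent. Epcam and the prolactin receptor Prlr had -0.22 and -0.84 without passing. The 2 luminal markers with a positive fold change, Cd14 and Csn3, did not pass either. Cd14 had 0.17, 0.13 and 0.18 in pairs 1, 2 and 3, and Csn3 a mean of 0.08. Endothelial and blood cell markers, which the Lin- gate should remove, summed to 48.7 to 199 and 204 to 2002 over all libraries, with 0 of 6 and 0 of 7 called. The highest were Egfl7, Kdr and Cdh5 (at most 153, 21.1 and 18.3) and Lyz2, Cd68 and Csf1r (at most 1635, 269 and 112). The Pecam1 and Ptprc values of the gate were at most 19.4 and 10.0. The part of fibroblasts or pericytes in the inducer values was likewise not tested.

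Genes whose profile across the 6 libraries was most like that of a member were sought among 11158 genes with a symbol and a mean value of at least 100, by the root mean square (RMS) difference of the centred log2 values. Nearest to Snai2 were Itga5, the fibronectin receptor chain (0.31), Snx24 (0.37) and Plxdc2 (0.39), and nearest to Prrx1 were Synpo2, a smooth muscle actin-binding protein (0.23), Pcdh7 (0.35) and Rasl12 (0.37). The RMS difference grows with a gene's own spread over the libraries and is not compared between members. The nearest were Timeless (0.09), Stxbp5 and Cit (both 0.10 to 0.11) for Grhl2, and Arhgef26 (0.12), Rab11fip1 and Tgm1 (both 0.15) for Ovol1. For Snai1 they were Lrfn3, Dcxr and Zfp651 (each 0.14), for Zeb1 Txndc15 (0.08), Fam216a and Cisd1 (both 0.09), for Zeb2 Slc4a7 (0.08), Nipal1 (0.09) and Nmrk1 (0.10), and for Twist1 Pbp2 (0.26), Myo7a (0.27) and Slit1 (0.29). Snai3 and Twist2 had mean values under 100 and were not compared. Over 6 libraries that share 3 pairs, a small difference is easily met, and these names describe the profiles only.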

How the data were processed

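RNA from 3 MIC and 3 non-MIC libraries was prepared with a stranded mRNA kit by the authors. The deposited values are a signal: read counts per gene that the authors scaled to the same total in each library (34999999 to 35000001). The paper names Bowtie2 for alignment and the submitters' processing notes name STAR and HTSeq on GRCm38 (mm10), and the versions are not given in the sources used here. Dividing each library by the smallest step between its values (0.676 to 1.11 per read) brought 99.99% to 100.0% of values within 0.01 of a whole number, so reads were recovered. Depth was 31467281 to 51759769 reads per library, without molecular identifiers, so intervals cover counting error only. Labels number the libraries 1 to 3 but do not say which tumours they came from, and p-values measure the spread between these libraries.

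Genes were compared on log2(value + 1) with limma 3.58.1 under R 4.3.3 (lmFit, eBayes with a trend, Benjamini-Hochberg over 22310 genes, threshold 0.05). Fold changes are on the log2(value + 1) scale, which understates the change of low genes. The recovered reads went into the quasi-likelihood test of edgeR 4.0.16 and into DESeq2 1.42.0. The main design has no block, as the paper ranks genes by an unpaired measure. The replicate block was added because both groups share numbers and because deviations from the group mean correlated at 0.791 to 0.889 between libraries of the same number. The average of -0.414 between other libraries follows largely from this, since deviations cancel within a group. Symbols and positions came from GENCODE vM21, which held 22161 of the 22310 identifiers, and promoters from RefSeq. The limma and edgeR fits, with and without the block, were tested on simulated data, and DESeq2 was not.

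The members and lists were chosen with earlier results of these data known. Named are the 10 members and the 3 genes most like each member. From each list, the genes called by limma are named. So are the 3 with the largest fold change at a mean value of at least 100 and the 3 with the highest mean. Other edgeR-called genes are named in addition, as are Krt14, Oxtr, Cd14, Csn3, Crb3 and Rab25, after their values or matches were seen.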

Additional observations from a re-analysis of the deposited data

How the results depend on the processing

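Calls of members were made with the block only, and there they differed by tool and by pair. Over 24 alternatives, 181 of 215 member fold changes kept direction and side of the threshold, 10 passed it, and 24 changed sign, with Twist2 left out at 0 to 7 reads. Without the block 0 members were called under other pseudocounts, the filter, TMM or quantile scaling, edgeR, DESeq2 or with any library left out. Members called higher numbered 2 in edgeR with the replicate block and 2 in DESeq2 with it, 1 in limma with the block without replicate 2 (Snai2, adjusted p = 0.0454), and 2 in edgeR with the block without replicate 2 or 3, but 0 without replicate 1. Members called lower numbered 1 in edgeR with the block without replicate 3. TMM or quantile scaling with the block, and edgeR without each pair, were chosen after seeing the data. The filter removed Snai3 and Twist2, and DESeq2 with the block gave Twist2 no adjusted p.

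Over all genes, calls with the replicate block numbered 29 in limma, 32 with TMM factors, 12 with quantile normalization, 315 in edgeR and 133 in DESeq2, and DESeq2 without the block called 1. Leaving out pair 1, 2 or 3 gave 11, 59 and 0 calls in limma and 33, 489 and 783 in edgeR, with the block. Mesenchymal targets called were 5 in limma, 6 with TMM, 3 with quantile, 14 in edgeR and 8 in DESeq2, all with the block, and without pairs 1, 2 and 3 they were 3, 8 and 0 in limma and 6, 16 and 12 in edgeR. Basal markers called were 7, 7, 5, 8 and 7 in the same order, and 5, 6 and 0 in limma and 6, 8 and 8 in edgeR without pairs 1, 2 and 3. Luminal markers called were 3 in edgeR and 2 in DESeq2 with the block, 1 in limma without pair 2, and 4 and 1 in edgeR without pairs 2 and 3. Fibroblast markers called were 2 in edgeR and 1 in DESeq2, 1 in limma without pair 2, and 1, 4 and 1 in edgeR without pairs 1, 2 and 3. With the block, edgeR called 1 other EMT factor (0 without pair 1 or 2, 2 without pair 3), 1 other keeper (1 in DESeq2, 2 without pair 2 or 3), 1 repressed epithelial target (3 and 2 without pairs 2 and 3), 1 partner without pair 2 and 1 signalling gene without pair 3. Among the alternatives run, the cause of these shifts was not tested.

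Sign changes were met in Snai1, Snai3, Zeb2, Twist1 and Prrx1. Snai1 turned to -0.21 in edgeR and -0.18 in DESeq2 without the block, to between -0.66 and 0.78 with one library left out, and to -0.13 and -0.065 in limma and -0.17 and -0.061 in edgeR with the block without pairs 1 and 3. Snai3 turned to 0.11 in edgeR and 0.14 in DESeq2, ranged from -0.79 to 0.23 with one library left out, and was 0.15 in limma and 0.24 in edgeR with the block without pair 2. Twist1 ranged from -1.65 to 1.76 with one library left out and was -0.073 in limma and -0.048 in edgeR with the block without pair 2, where Zeb2 was -0.021 in limma. Prrx1 ranged from -0.10 to 2.04 with one library left out, the low end without MIC 1. Snai2 stayed between 0.75 and 1.92, Grhl2 between -0.99 and -0.31 and Ovol1 between -1.32 and -0.23 in those fits.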
